A study of Mus musculus with 19 samples.

Results

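The data described here are the 6 samples of retinal microglia, named S1 to S6, that were sorted 3 days after laser burns (CNV d3), and the question is how much samples of this 1 condition differ from each other. Every protein-coding gene whose mean over these 6 samples was at least 50 normalised read counts was included, which gave 10213 of the 16070 protein-coding genes and of the 27299 genes in all. The mean of the gene just inside this limit, Grm3, was 50.003 and that of the gene just outside, Gm10130, was 49.98. The unlasered control samples of the series were not used.

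All 6 samples came from mice of 8 weeks, named as C57BL/6J in the labels and as heterozygous for GFP in Cx3cr1 in the methods, whose eyes had received 6 argon laser burns each. Such burns break the membrane under the pigment epithelium, so that vessels of the choroid grow toward the retina, a model of neovascular macular degeneration. The central retina was sorted for CD11b+CX3CR1+Ly6C-Ly6G- cells that were positive for CD45 according to the labels and low for CD45 according to the methods. The labels give neither the sex of the mice nor how many animals or eyes went into a sample, so the spread reported here is that between these samples and may be partly technical. S4 was listed in 2 parts that the deposited values hold merged, and it was counted as 1 sample.

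Microglia are the resident macrophages of the retina. At rest they are known by receptors such as P2RY12, TMEM119 and CX3CR1, and after injury they can divide, present antigen through MHC class II, answer interferons and secrete matrix proteins such as fibronectin and osteopontin. Monocytes that enter the tissue can take on a similar appearance, and the absence of Ly6C in the gate removes only those that still carry that protein.

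The 6 samples were sequenced to a similar depth, with between 23532260 and 29523018 reads on genes, so 1 read was worth between 0.739 and 0.895 normalised read counts. The defining microglia genes were high in every sample: Cx3cr1 lay between 48298 and 70988 normalised read counts, P2ry12 between 44022 and 81084 and Tmem119 between 38810.1 and 72446. No pair of samples agreed within sampling noise, since the chi-square per degree of freedom between their reads was at least 39.0. The median absolute log2 difference of a gene between a pair of samples was between 0.209 (S2 and S6) and 0.317 (S3 and S4).

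Most genes differed little between the 6 samples. The SD of log2(value + 1), the measure of spread used throughout, had a median of 0.244, and the sample with the highest value exceeded the lowest by a median factor of 1.57. In 90% of the genes the SD was at most 0.550. In 491 genes (4.81% of all 10213) the highest sample was at least 4 times the lowest on the value + 1 scale, in 2427 genes (23.8%) at least 2 times, and in 200 genes (1.96%) at least 8 times. Low genes made up most of the first group: 308 of the 491 belonged to the tenth of the genes with the lowest means, and 6 were among the 1022 genes of the tenth with the highest means. For comparison, counting of reads alone would give a median SD of 0.0504, and the observed SD was a median of 4.91 times the value that counting gives the same gene. This floor covers counting error only, since PCR copies of a molecule were counted as reads of their own. The SD was at or under that floor in 22 genes.

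**Figure D1:**
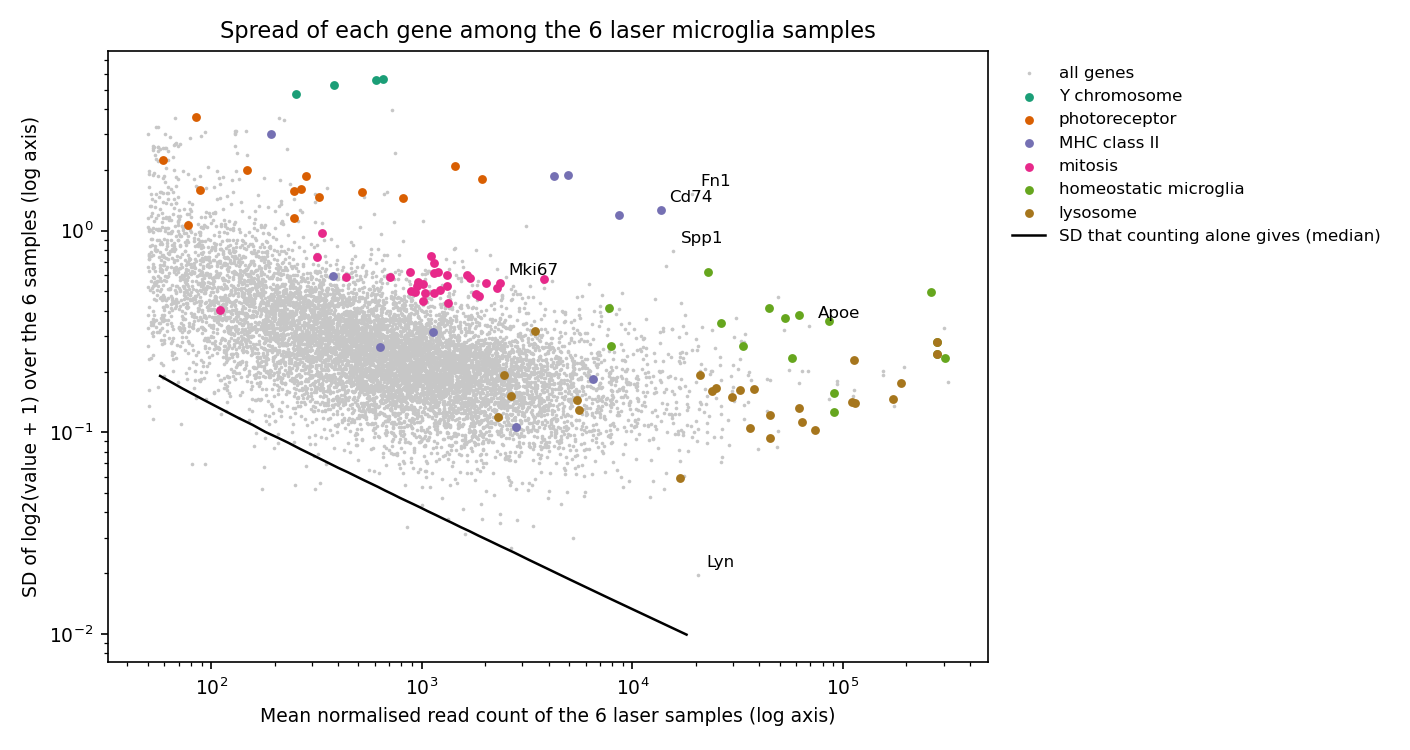
SD of log2(value + 1) over the 6 laser samples (vertical, log axis) against the mean normalised read count (horizontal, log axis), 1 point per gene for 10213 genes, with 6 gene lists coloured and the median SD that counting alone gives as a line. Y chromosome genes lie on top with SDs from 4.76 to 5.67, photoreceptor genes range from 1.07 to 3.65, and lysosome genes from 0.060 to 0.316, while Lyn, at 0.020, is the lowest gene.

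Samples S3, S6 and S1 held most of the extreme values. Among the 491 genes past the 4-fold limit, the highest value was in S3 in 141 genes and in S6 in 134, and in S2 in 35. The lowest value was in S1 in 179 genes and in S4 in 101, and in S2 in 44. Thus S2 was seldom at either end. In 583 genes (5.71% of all) a single sample stood apart from the other 5 by Dixon's ratio of the gap to the range, a measure that flags about 5% of groups by chance. S3 was that sample in 165 genes, S1 in 121 and S4 in 118.

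In a principal component analysis of all 10213 genes, component 1 held 34.8% of the variance and component 2 held 24.9%. On component 1, S1 lay at 40.3 and S4 at 17.0, S5 at -1.51 and S2 at -1.83, and S3 at -26.3 and S6 at -27.7. The genes with the largest loadings toward S1 were low genes such as Sec16b, H2-M2, Il12rb2, Cxcl9, Nckap1 and Nhlrc1, whereas Ccl22, Cd209a, Cdh1, Ciita, Emp1 and Opn1sw lay toward S3 and S6. On component 2, S4 (34.6), S6 (12.4) and S5 (7.64) lay opposite S2 (-15.1), S1 (-19.5) and S3 (-19.9). The 200 lowest loadings of component 1, toward S3 and S6, and the 200 highest of component 2 each held 4 of 4 Y chromosome genes and 13 of 14 photoreceptor genes. The former also held 5 of 10 MHC class II, 6 of 15 monocyte and 5 of 12 dendritic cell genes. Each set was 200 of all 10213 genes. The genes were not scaled, so those of large SD reach such loadings more readily. The Y chromosome genes lay toward S3 and S6 although they had at most 1 read in S3. The remaining 3 components held between 10.4% and 16.0% of the variance, so no single axis described the 6 samples.

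**Figure D2:**
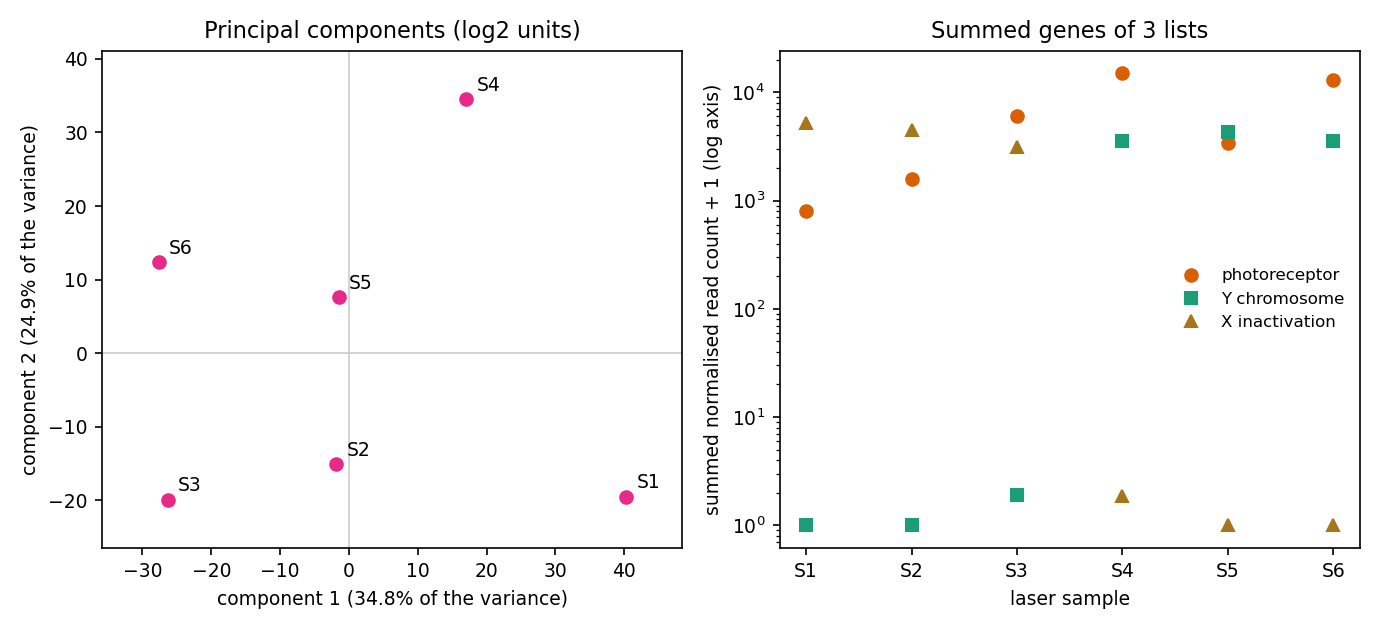
Left, scores of the 6 laser samples on components 1 (horizontal) and 2 (vertical), in log2 units, 1 point per sample. Right, the summed normalised read count + 1 of the photoreceptor, Y chromosome and X inactivation lists by sample on a log axis: S1, S2 and S3 have X inactivation sums from 3129.9 to 5271, S4, S5 and S6 have Y chromosome sums from 3529 to 4284, and the photoreceptor sum runs from 803 in S1 to 15012 in S4.

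The 4 genes with the largest spread of all were those of the Y chromosome list, and they were on or off. Ddx3y, an RNA helicase gene on Y (chrY:1260771-1286629, minus strand, GRCm38), had 0 reads in S1, S2 and S3 and values of 1240.3 in S4, 1449.8 in S5 and 1239 in S6. Eif2s3y had 0 reads in the same 3 samples and 1144, 1439 and 1036 in S4, S5 and S6, and Uty likewise 715, 901 and 686. Kdm5d had 429, 494 and 587 in S4, S5 and S6 and 1 read in S3. Xist, the non-coding RNA that coats the inactive X and thus no member of the 10213 genes, showed the opposite order with 5245, 4432 and 3116 in S1, S2 and S3, 1 read in S4 and none in S5 and S6. The labels name no sex, and because each of these 2 sets holds 3 samples, any other difference between the same sets cannot be told apart from it. A count of 0 reads allows up to 3 reads, which is between 2.22 and 2.68 normalised read counts.

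Photoreceptor genes varied widely. All 14 photoreceptor list genes with a mean of at least 50 passed the 4-fold limit, with a median SD of 1.596 against 0.244 for all genes. The background was 4.81%, and 30.1% among the 1022 genes of lowest mean, to which Opn1sw belongs. With a mean of at least 200, 9 of the 14 remained, and all 9 passed. A gene that is high in 1 sample can meet the mean of 50 through that sample, and then also tends to pass the limit. Gnat1, the rod transducin subunit, was at 96.0, 202, 956, 4018, 606 and 2780.4 in S1 to S6, and the phosphodiesterase subunit Pde6b at 76.8, 66.9, 199, 738, 193 and 673. Thus S4 and S6 were highest and S1 and S2 lowest for these rod genes. Summed over the 20 listed genes the values were 803, 1575, 6020.1, 15012, 3403 and 13078, an 18.7-fold range. The cone genes Opn1sw, Opn1mw and Arr3 did not follow this order and were high in S3 alone. Opn1sw, the short-wave cone opsin, had 0 reads in S1, S2, S4 and S5, 500.2 in S3 and 9.97 in S6. Opn1mw and Arr3, both under the mean of 50, were at 94.0 and 33.1 in S3 and at no more than 2.40 in the other samples. The other cone genes of the list are not reported here. Of the 25 genes with the largest SD, Prom1, Abca4, Cdhr1, Impg1, Aipl1, Rp1l1 and Cngb1 are also known from photoreceptors. In a bulk sample, fewer cells of a type and less RNA per cell cannot be told apart, and the part of photoreceptor RNA in the spread of other genes was not tested. Impg1, a protein of the matrix between photoreceptors, was at 0, 2.51, 24.2, 243, 0.801 and 29.9.

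Of the 25 genes with the largest SD, 22 had a sample at 0 reads and 18 had a mean under 200. Ccr7, the receptor by which dendritic cells reach the lymph node (chr11:99144196-99155077, minus strand), was the most variable gene outside the Y chromosome at a mean of 719.5, with 533, 1376, 922, 0, 375 and 1111 in S1 to S6. It was thus absent at this depth in S4 alone. Gpr141, Trib3, Tnip3 and P2ry10 had 0 reads in S4 alone as well, with highest values of 302, 246, 136 and 107.0. Ccl22, a chemokine made by dendritic cells and macrophages, had 739 in S6, 336 in S3, 140.5 in S2 and 38.4 in S5, and 5.17 in S1 and 0 in S4. Mmp12, the macrophage elastase, stood out in S5 with 550.3 and in S3 with 189.7, against 0.739, 12.5, 8.66 and 14.1 in S1, S2, S4 and S6. H2-M2 had 269 in S1, 88.6 in S3 and 46.5 in S5 and at most 1 read elsewhere. Kit and Epcam had 0 reads in S1 and S5 and their highest values in S6 (173) and S3 (165), and Cdh1 had 0 reads in S1 and was highest in S6 (205).

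Fn1, the gene of fibronectin (chr1:71585520-71653200, minus strand, GRCm38), varied most among the 5 markers of laser microglia. Its values were 3763 in S1, 16586 in S2, 47390.1 in S3, 4164 in S4, 9895 in S5 and 33440 in S6, a 12.6-fold range with an SD of 1.52 on the log2 scale. Cd74, the invariant chain that escorts MHC class II, was at 3420, 14544.5, 23812, 3923, 10686 and 25808, a 7.54-fold range with an SD of 1.26. Both genes were lowest in S1 and S4 and highest in S3 and S6. Spp1, which encodes osteopontin (chr5:104435118-104441050, plus strand), followed another order, with 18702 in S1, 8257 in S2, 14528 in S3, 13639 in S4, 31243 in S5 and 6989.6 in S6, and its range was 4.47-fold. Mki67, a marker of dividing cells (chr7:135689784-135716361, minus strand), was at 1219, 1657, 2949, 2269, 2835 and 3232, a 2.65-fold range, and was lowest in S1. Apoe, which encodes the lipid carrier apolipoprotein E (chr7:19696109-19699188, minus strand), varied least, from 51437 in S4 to 93325 in S2, a 1.81-fold range with an SD of 0.336. Fn1, Cd74 and Spp1 have exons that overlap those of an annotated neighbour. Reads that lie on both genes were left out by the counting, and how many these were was not measured.

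**Figure D3:**
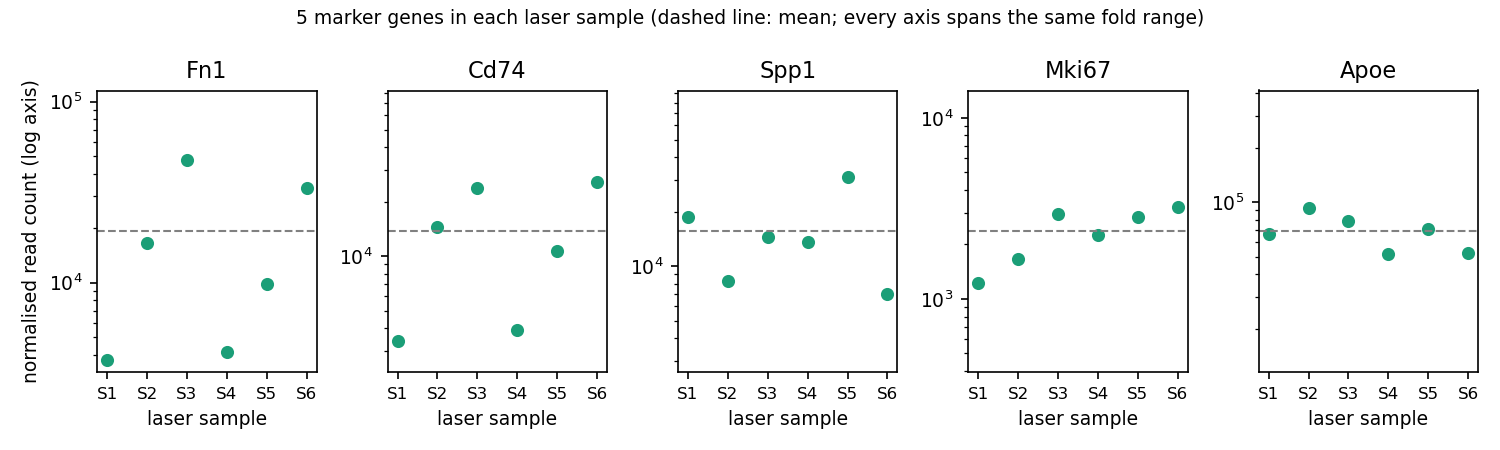
Normalised read count (log axis, spanning the same fold range in each panel) of Fn1, Cd74, Spp1, Mki67 and Apoe in S1 to S6, 1 point per sample, with the mean of the 6 as a dashed line. Fn1 and Cd74 are low in S1 and S4 and high in S3 and S6, Spp1 is highest in S5, and Apoe stays between 51437 and 93325.

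Fn1 and Cd74 had nearly the same order across the samples. Their Pearson r on the log2 scale was 0.98 (two-sided exact permutation p = 0.00694, adjusted p = 0.419 over the 51060 relations between a marker and a gene) and the rank correlation rho was 0.94 (p = 0.0167 by the same exact test, 0.498 adjusted). Without S1 and S3, the samples farthest from the median of Fn1, r was 0.99. The smallest p that 6 samples allow is 0.00139, and no relation out of 51060 had an adjusted p under 0.05 (smallest 0.366), whereas 4653 (9.11%) had an unadjusted p under it. Within S1, S2 and S3 both genes were in the same order, and likewise within S4, S5 and S6, sets of 3 that are too small for a correlation of their own. The other 9 pairs of markers had r between -0.45 and 0.68, with exact permutation p of at least 0.139 unadjusted (adjusted p of at least 0.679). Spp1 in particular had r of -0.45 with Fn1 (rho -0.43, exact permutation p = 0.396 for r and 0.419 for rho, r -0.37 without S5 and S6) and -0.44 with Cd74.

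Counting all genes shows how many had a high or low r with each marker. This is a description over 6 samples that share their libraries and size factors. Unrelated genes can reach such an r over 6 samples: in simulated counts, 0.656% of the unchanged genes had r of at least 0.9 with a changed gene. The shares of r of at least 0.9 were near that rate for Spp1 and under it for Apoe. With Fn1, 394 genes (3.86%) had r of at least 0.9 and 212 (2.08%) had r of at most -0.9. With Cd74 these were 380 (3.72%) and 170 (1.66%), with Mki67 180 (1.76%) and 124 (1.21%), with Spp1 80 (0.783%) and 85 (0.832%), and with Apoe 39 (0.382%) and 62 (0.607%). The genes of Fn1 and Cd74 were largely shared: 288 genes had r of at least 0.9 with both, which was 73.3% of the 393 of Fn1 other than Cd74 and 76.0% of the 379 of Cd74 other than Fn1. That sharing follows from the r of 0.98 between Fn1 and Cd74 and is no separate result. No gene had r of at least 0.9 with Spp1 and with any other marker. None could, because the r of Spp1 with the other markers was between -0.45 and 0.090.

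The gene closest to Fn1 was H2-Ab1, the beta chain of the MHC class II molecule I-A, at 2408, 8762, 17115, 2720.3, 5942 and 14916 in S1 to S6. It was followed by Crym, Hint1, Pkm, Sfpq and Septin9, with r between 0.992 and 0.996, exact permutation p between 0.00139 and 0.00417 (adjusted p between 0.366 and 0.416), rho from 0.94 to 1 and r without S1 and S3 of at least 0.986. These genes differed in how far they moved: Crym ranged 4.68-fold, the glycolytic enzyme Pkm 1.603-fold (8799 in S1 and 14108 in S3) and the splicing factor Sfpq 1.23-fold. At the other end were Rnf130, a ubiquitin ligase gene, and Miga1. Rnf130 was at 11634 in S1, 9627 in S2, 8463 in S3, 11791 in S4, 10432 in S5 and 8723 in S6, so that S1 and S4, the lowest samples for Fn1, were highest (r -0.997, rho -0.94, exact permutation p = 0.00278 and 0.0167, adjusted p = 0.391 and 0.498, r without S1 and S3 of -0.9998).

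The genes closest to Cd74 were Vcp, Emilin2, Ogdh, S100a11, H2-Aa and H2-Eb1, with r between 0.994 and 0.999, exact permutation p between 0.00139 and 0.00278 (adjusted p between 0.366 and 0.391), rho from 0.94 to 1 and r without S1 and S4 of at least 0.972. At the other end were P2ry12, Miga1 and Taz, with r between -0.992 and -0.990.

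MHC class II genes differed in their spread, and 5 of the 10 listed genes passed the 4-fold limit (background 4.81%). H2-Aa, the alpha chain of I-A, was at 492, 4414, 10826, 686, 3661 and 9589.6 in S1 to S6, a 22.0-fold range. H2-Eb1, the beta chain of I-E, was at 397, 4342, 9008, 702, 2651 and 8287, a 22.7-fold range. Ciita, the coactivator that switches these genes on, was at 1.48 in S1 (2 reads), 12.1 in S4, 132 in S2, 185 in S5, 403 in S3 and 418 in S6. S1 and S4 were thus lowest and S3 and S6 highest, as for Cd74. By contrast, the peptide-loading genes H2-DMa and H2-DMb1 ranged 1.37-fold and 1.24-fold, under the median of 1.57-fold for all genes. H2-Oa, H2-Ob and H2-DMb2 lay above that median, at 1.71-fold, 1.77-fold and 3.03-fold. H2-Ob was at 1326 in S1 and 1526 in S4 and at 864 in S6 and 1132 in S3. Of MHC class I, 0 of 14 genes passed the limit, and the median SD was 0.188.

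The promoters of H2-Aa and H2-Eb1 are shown because these genes varied together over a wide range although both are abundant. The windows hold 250 bases before and 50 after the start (RefSeq, GRCm38.p6), for H2-Aa chr17:34287774-34288073 on the minus strand and for H2-Eb1 chr17:34305617-34305916 on the plus strand. Capitals mark CCAAT on either strand (ATTGG on the other), which MHC class II promoters are known to carry as the Y box, and in H2-Aa the palindrome TGACGTCA at its X box. CCAAT stood in 37.9% of all 27025 windows and TGACGTCA in 1.88%. Among the 8327 windows of member genes these were 39.4% and 3.54%.
H2-Aa: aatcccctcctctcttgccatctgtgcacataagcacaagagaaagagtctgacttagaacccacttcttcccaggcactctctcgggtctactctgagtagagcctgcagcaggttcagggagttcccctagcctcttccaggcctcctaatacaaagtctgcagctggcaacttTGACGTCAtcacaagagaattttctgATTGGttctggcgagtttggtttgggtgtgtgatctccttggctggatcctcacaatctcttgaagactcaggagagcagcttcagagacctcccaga
H2-Eb1: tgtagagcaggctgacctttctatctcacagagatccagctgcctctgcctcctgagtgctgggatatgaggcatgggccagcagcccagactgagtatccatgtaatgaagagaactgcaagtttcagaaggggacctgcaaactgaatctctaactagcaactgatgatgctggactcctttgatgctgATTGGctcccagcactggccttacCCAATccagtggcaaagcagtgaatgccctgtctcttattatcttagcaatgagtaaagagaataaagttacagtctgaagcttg
In H2-Aa the palindrome began 74 bases and ATTGG 48 bases before the start, and in H2-Eb1 ATTGG began 59 bases and CCAAT 35 bases before it. A window was found for 7 of the 10 listed genes, too few for a share of the list. A match in letters does not show that a factor bound there.

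Some genes of monocytes and dendritic cells, other cells that the gate could hold, followed Fn1 and Cd74. Of the monocyte list 9 of 15 members passed the 4-fold limit (background 4.81%), and 4 of the 14 members other than Fn1 had r of at least 0.9 with it (background 3.86%). Napsa, an aspartic protease gene, was at 48.0, 344, 639.8, 71.8, 298 and 716 in S1 to S6. Ccr2, the receptor for the monocyte chemokine CCL2, was at 120.4, 278, 1162, 163, 909.9 and 1351, and S100a6 at 73.9, 145.5, 498, 40.7, 175 and 331. Both were high in S3 and S6 and low in S1 and S4, and Ccr2 was high in S5 as well. Summed over the list, the values lay between 33793 in S4 and 86104 in S3. Fn1 is part of that sum and made up most of this range, so the sum does not show that the other monocyte genes followed Fn1. Genes of inflammatory monocytes thus differed in level: Ccr2 had between 120.4 and 1351, whereas Ly6c2, a gene of the Ly6C protein that the gate selected against, was at 25.1 or less and Chil3 at 14.1 or less in every sample. Lyz2, an abundant lysozyme gene of all macrophages, ranged 1.39-fold.

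Of the dendritic cell list 6 of 12 members passed the limit (background 4.81%, and 30.1% among the 1022 genes of lowest mean), and 4 of 12 had r of at least 0.9 with Fn1 (background 3.86%). Flt3, the growth factor receptor that dendritic cells need, was at 62.8, 135, 291, 51.9, 139 and 274 in S1 to S6, Cd209a, a lectin of monocyte-derived dendritic cells, at 0.739, 273, 379, 4.33, 167 and 510.1, and Zbtb46 at 75.4, 133, 225, 90.9, 138 and 151. These genes were thus highest in S3 or S6 and lowest in S1 or S4. Batf3 had r of -0.32 with Fn1 and ranged 1.27-fold, Fscn1 ranged 1.73-fold, and Clec9a had at most 19.7. The sum of the list lay between 3532 in S4 and 6344 in S2. The part of such cells in the spread of Fn1 and Cd74 was not tested. Neutrophil and lymphocyte genes gave 1 member each, Csf3r and Cd79b, which ranged 2.18-fold and 2.08-fold and were highest in S1, and the erythroid sum was at most 10.3 normalised read counts.

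Homeostatic microglia genes had the opposite order but a narrow range. None of the 16 genes passed the 4-fold limit (background 4.81%, and 0.587% among the 1022 genes of highest mean). Their median SD was 0.314, above the 0.244 of all genes and the 0.162 of those 1022 genes. P2ry12, the receptor for ADP that directs microglial processes, was at 80125 in S1, 55375 in S2, 45935 in S3, 81084 in S4, 62057 in S5 and 44022 in S6. Tmem119 was at 67488, 50744, 38810.1, 72446, 46734 and 41238 in S1 to S6, and Cx3cr1, the fractalkine receptor, at 67515, 52076, 49793, 70988, 55975 and 48298. S1 and S4 were thus highest and S3 and S6 lowest. Of the 16 genes, 10 had r of at most -0.9 with Fn1 (background 2.08%) and 8 with Cd74 (background 1.66%). Without S6, 7 had such an r with Cd74, and without S1 or S3, 8 had it with Fn1. Fcrls, an Fc receptor-like gene, did not share this order: it was at 32487 in S1, 22804 in S2, 29337 in S3, 10816 in S4, 26306 in S5 and 14685 in S6, and had the largest SD of the list, 0.621. Cst3, which encodes the protease inhibitor cystatin C, ranged 2.58-fold, and Olfml3 ranged 1.28-fold.

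**Figure D4:**
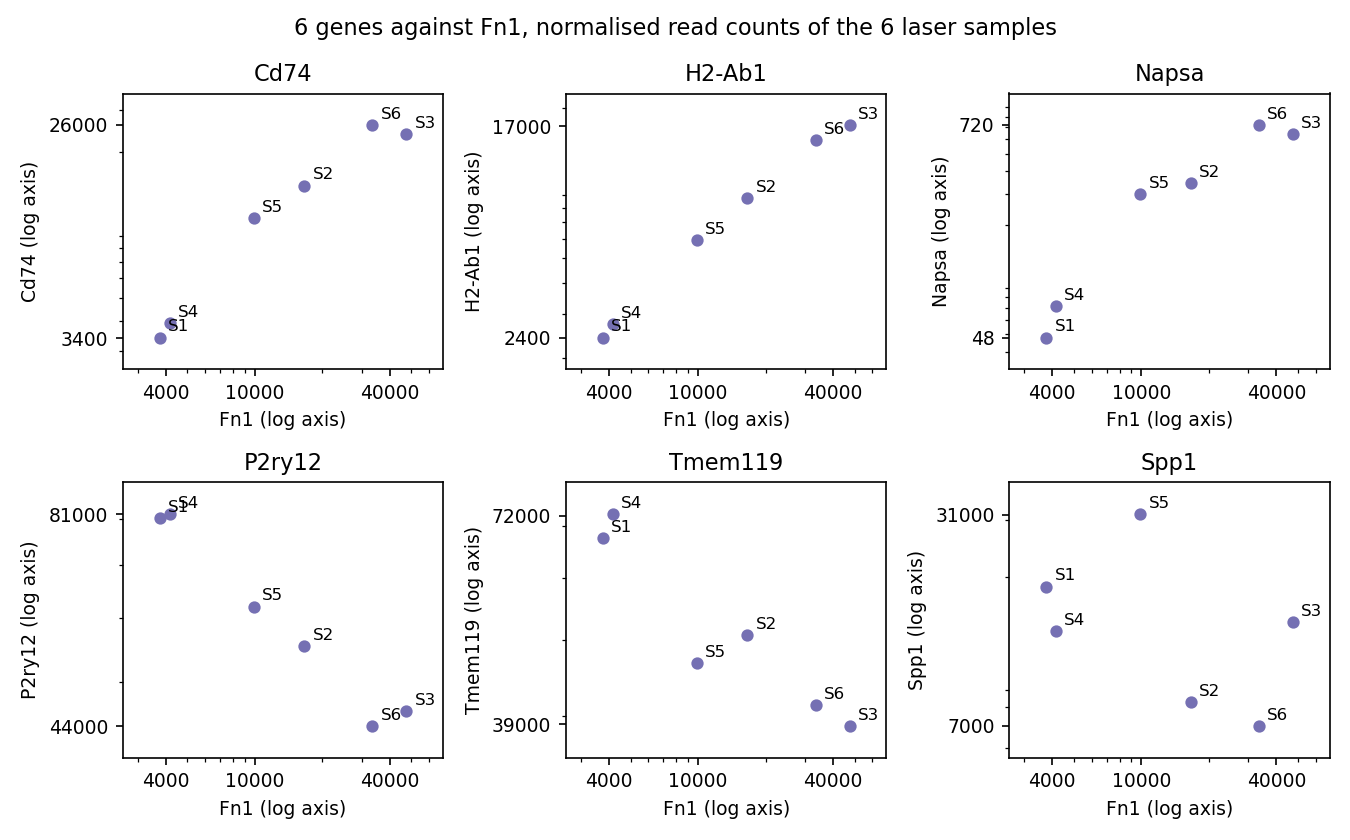
Cd74, H2-Ab1, Napsa, P2ry12, Tmem119 and Spp1 (vertical, log axes) against Fn1 (horizontal, log axis) in normalised read counts, 1 point per laser sample. Cd74, H2-Ab1 and Napsa lie higher where Fn1 is higher, P2ry12 and Tmem119 lie lower, and Spp1 has its highest value, 31243 in S5, at a middle level of Fn1.

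Genes of dividing cells had their lowest sums in S1 and S4. Among 30 mitosis genes the median SD was 0.549 and the range was 1.84-fold to 4.69-fold. Of them 2 genes, Ttk and Gtse1, passed the 4-fold limit (background 4.81%). Top2a, the topoisomerase of dividing cells, was at 1926, 3577, 5078, 2597, 4238 and 5307 in S1 to S6, Cdk1 at 1139, 1917, 2423, 1269, 1932 and 2524, and Kif20a, a kinesin of cytokinesis, at 419.6, 1228, 1417, 705, 1279 and 1617. S6 was highest in 20 of the 30 genes (18.7% of all genes), and the sum of the list ran from 20972 in S1 and 25882 in S4 to 52254 in S6. Of the 30 genes 14 had r of at least 0.9 with Cd74 (background 3.72%) and 4 had it with Fn1 (background 3.86%). Of the other 29 genes 3 had it with Mki67 itself (background 1.76%). Mki67 was higher in S4 (2269) than in S2 (1657), whereas Top2a, Cdk1 and Kif20a were higher in S2 than in S4. The count for Fn1 depended on single samples, since it was 14 without S3 and 20 without S5, and that for Mki67 was 13 without S2 or S4 and 1 without S1. That for Cd74 was 22 without S5. Over all genes the counts rose without S5 as well, from 394 to 685 for Fn1 and from 380 to 653 for Cd74.

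Genes of DNA replication had a median SD of 0.353, and 0 of 30 passed the 4-fold limit (background 4.81%). S3 was highest in 20 of them and S6 in 9, against 22.3% and 18.7% of all genes. Mcm10, which starts replication forks, was at 262, 327, 747, 437, 355 and 746, and Chaf1a, which loads histones, at 308, 418, 789, 297, 344 and 651, while the helicase subunit Mcm7 ranged 1.29-fold.

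The promoters of Mki67 (chr7:135716330-135716629, minus strand) and Ccnb2, the gene of cyclin B2 (chr9:70421505-70421804, minus strand), are shown because many mitosis genes are known to carry CCAAT together with TTTGAA, the core of the cell cycle homology region. Capitals mark CCAAT on either strand and TTTGAA.
Mki67: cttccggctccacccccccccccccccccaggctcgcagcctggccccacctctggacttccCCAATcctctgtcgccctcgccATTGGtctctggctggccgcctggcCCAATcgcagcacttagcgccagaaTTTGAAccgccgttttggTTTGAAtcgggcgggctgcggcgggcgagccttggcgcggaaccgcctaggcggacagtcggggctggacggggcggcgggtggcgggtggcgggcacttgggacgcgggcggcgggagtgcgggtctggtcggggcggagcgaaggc
Ccnb2: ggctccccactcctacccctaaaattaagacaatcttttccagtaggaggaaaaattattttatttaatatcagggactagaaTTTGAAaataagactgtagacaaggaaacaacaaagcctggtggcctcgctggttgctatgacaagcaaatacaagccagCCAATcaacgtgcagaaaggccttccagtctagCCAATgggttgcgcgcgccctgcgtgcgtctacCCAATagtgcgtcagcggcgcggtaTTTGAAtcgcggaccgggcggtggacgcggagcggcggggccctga
CCAAT occurred at 3 places in each window. TTTGAA occurred at 2 places in each, beginning 116 and 98 bases before the start in Mki67, and 167 bases before and 4 bases after it in Ccnb2. Of the 26 mitosis genes with a window, 23 (88.5%) held CCAAT and 19 (73.1%) held TTTGAA on either strand. Among 25 DNA replication genes these were 15 (60.0%) and 3 (12.0%). The shares were 37.9% and 18.1% of all windows, and 39.4% and 12.0% of the 8327 windows of member genes.

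The genes closest to Mki67 itself were Slk, Osbpl1a, Gas7, Mdm2, Spon1 and Ifih1, with r between 0.985 and 0.995, exact permutation p between 0.00139 and 0.00278 (adjusted p between 0.366 and 0.391), rho from 0.94 to 1 and r without S1 and S2 of at least 0.908. Ifih1, the RNA sensor MDA5, was at 1119, 1427, 1877, 1678, 1829 and 2187 in S1 to S6, and Mdm2, which marks p53 for degradation, at 1274, 1432, 1666, 1579, 1659 and 1809. At the other end were Tm2d3, Slc46a1 and Rap1gap2.

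Interferon-response genes had their lowest mean level in S1 and their highest in S6, at -0.70 and 0.43 about the mean of the 6 samples on the log2 scale. Among 27 members the median SD was 0.4664, and S6 was highest in 19 and S3 in 7 (18.7% and 22.3% of all genes). Only Oas2 passed the 4-fold limit (background 4.81%), at 163, 572, 1043, 456, 732 and 1459 in S1 to S6. Ifitm3, a membrane protein that blocks virus entry, was at 5338, 10014, 10947, 6069.8, 8358 and 12534.5, and Ifi27l2a at 8280.2, 17399, 20299.8, 7108, 12968 and 20546. Both were low in S1 and S4 and had r of at least 0.9 with Cd74, as had 7 of the 27 genes (background 3.72%). Ifit3 had another order, with S4 above S2, and was at 2959.5, 4502, 5879, 5588, 4620.0 and 5212. Of the 27 genes 6 had r of at least 0.9 with Mki67 (background 1.76%). The count for Cd74 was 20 without S4, where that over all genes rose from 380 to 604 as well. Irf9 ranged 1.21-fold.

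The promoter of Ifit3 (chr19:34583279-34583578, plus strand) is shown with the core of the interferon-stimulated response element in capitals, which is GAAA, any 2 bases and GAAA, and here reads on the other strand. It occurred at 2 places, 156 and 122 bases before the start, and stood in 3.49% of all windows. A window was found for 20 of the 27 members, too few for a share of the list.
Ifit3: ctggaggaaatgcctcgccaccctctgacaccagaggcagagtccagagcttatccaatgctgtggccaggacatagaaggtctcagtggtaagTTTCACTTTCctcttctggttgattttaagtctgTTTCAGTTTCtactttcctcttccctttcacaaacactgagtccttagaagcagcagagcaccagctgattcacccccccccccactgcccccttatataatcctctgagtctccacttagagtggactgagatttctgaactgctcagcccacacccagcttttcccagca

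**Figure D5:**
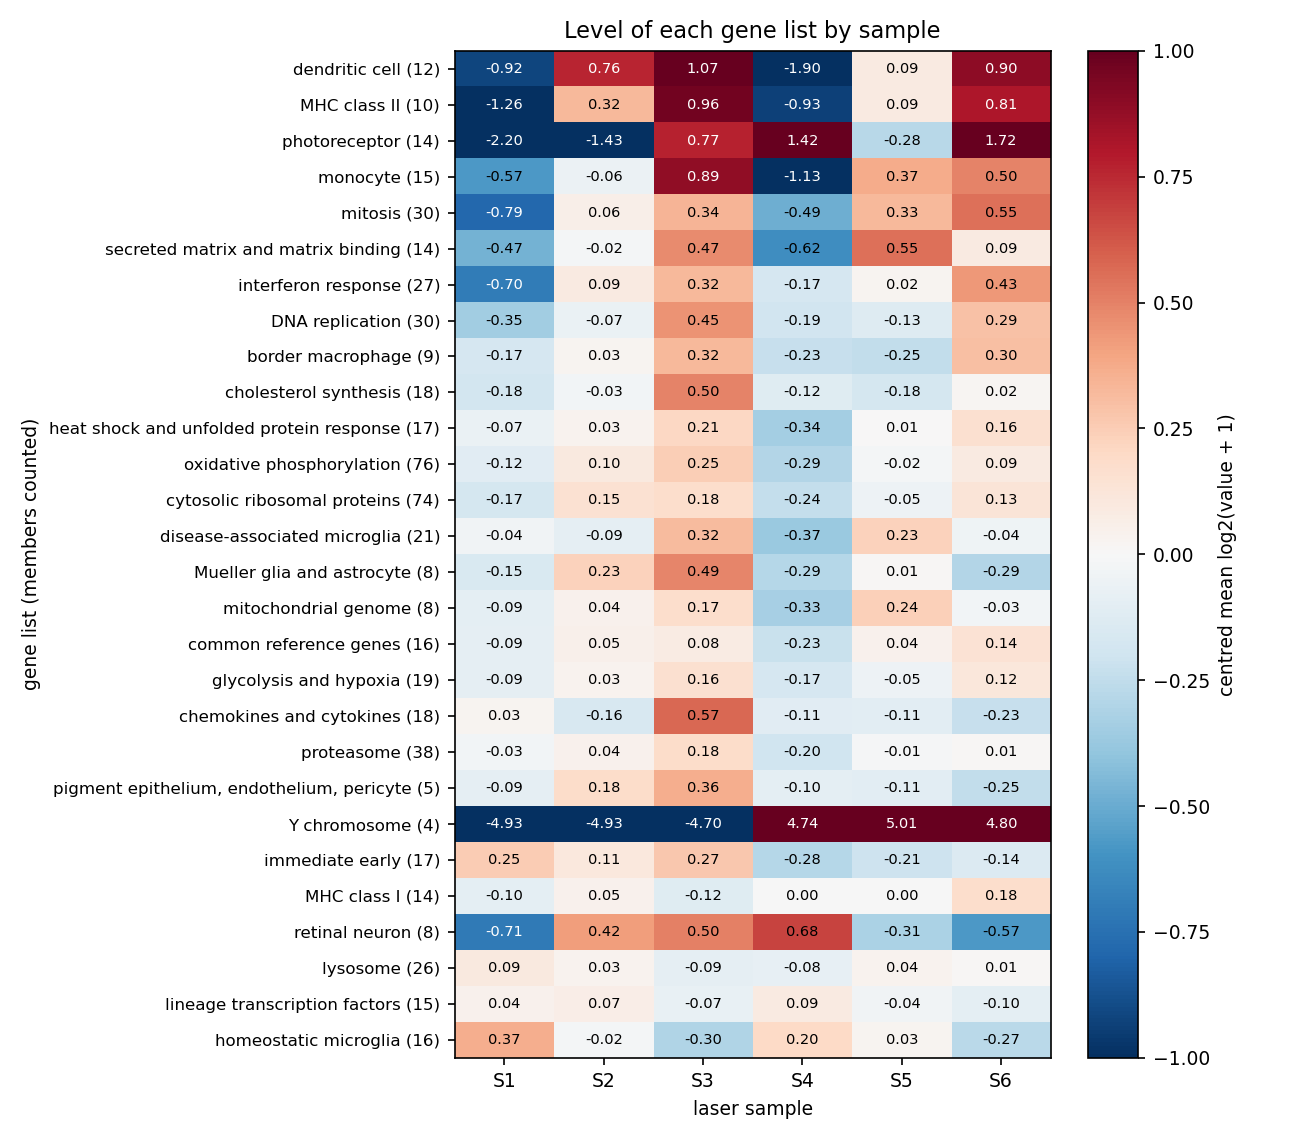
Mean log2(value + 1) over the members of each gene list (rows, number of members in brackets) in S1 to S6 (columns), minus its mean over the 6 samples, with the value printed in each cell and colours that end at -1 and 1 (log2 units). The dendritic cell, MHC class II, monocyte and mitosis lists lie below 0 in S1 and S4 and above 0 in S3, S5 and S6, the homeostatic list lies at 0.37 and 0.20 in S1 and S4 and at -0.30 and -0.27 in S3 and S6, and the lysosome list stays between -0.09 and 0.09.

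Spp1 and the other genes known from disease-associated microglia did not vary as a block. Of 21 members 3 passed the 4-fold limit (background 4.81%), Spp1, Cst7 and Gpnmb, and the median SD was 0.265 against 0.244 for all genes. Gpnmb, a glycoprotein of phagosomes, was at 708, 373, 1755, 291, 1715 and 1260.2 in S1 to S6 and thus high in S3, S5 and S6. Cst7, which encodes cystatin F, was at 818, 949, 3418, 706, 1503 and 1217 and highest in S3. The lysosomal proteases of the list ranged 1.221-fold (Ctsz) to 1.42-fold (Ctsd), and Trem2, the lipid receptor that drives this state, was at 7571, 6757, 4449.7, 6673, 5703 and 5155.

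The genes closest to Spp1 were Yipf6, C1galt1c1, Phospho2, Mctp1 and Ggnbp2, with r between 0.972 and 0.983, exact permutation p between 0.00139 and 0.00417 (adjusted p between 0.366 and 0.416), rho from 0.94 to 1 and r without S5 and S6 of at least 0.902. Pold1, a DNA polymerase subunit, had the reverse order, from 537 in S5 to 1092 in S6. Among the matrix genes Tgfbi followed Fn1, at 4015, 5594, 7454, 3704, 5189 and 8423, while Timp2 ranged 1.223-fold and Plau was lowest in S6 (67.3) and highest in S5 (211).

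The genes closest to Apoe were Txnl4a, Zmynd8, Apoc1, Sirt2, Zfp639 and Ebpl, with r between 0.954 and 0.980, exact permutation p between 0.00278 and 0.0125 (adjusted p between 0.391 and 0.434), rho from 0.89 to 1 and r without S2 and S4 of at least 0.895. Apoc1, the neighbour of Apoe on chromosome 7 and an apolipoprotein gene as well, was at 146, 496, 327, 58.9, 166 and 99.7 in S1 to S6, in the same order of samples as Apoe but over an 8.30-fold range. Pde8a, Vav1 and Cpeb2 lay at the other end, and Vav1, a signalling gene of blood cells, was at 12673, 11727, 12053, 13788.5, 12550.4 and 14173.

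Many chemokine genes had their highest value in S3. Of 18 chemokine and cytokine genes 4 passed the 4-fold limit (background 4.81%), and 12 were highest in S3 (22.3% of all genes). Ccl2, which draws monocytes, was at 2440.2, 1938, 6105, 1521, 2692 and 3046 in S1 to S6, Ccl7 at 107.1, 153, 1013, 71.0, 146 and 376, and Ccl12 at 15393, 13205, 29584, 15928, 15343 and 12918. Without S3, 2 of the 18 passed the limit, and without S4, 1 did. Ccl4 was at 2480.1, 2475, 4010.4, 952, 1317 and 1449.6, so that S4, S5 and S6 were all below S1 and S2. Cxcl9, a chemokine induced by interferon gamma, was highest in S4, at 219, and at 1.66 (2 reads) in S6. The cholesterol synthesis genes were highest in S3 in 13 of 18 members (22.3% of all genes), for example Sqle with 1189 in S3 and between 415 and 662 in the other samples, and 0 of 18 passed the limit. Immediate early genes were split: Fos was at 538 in S1 and between 113 and 278 elsewhere, and Egr1 at 1517 in S3 and between 345 and 621 elsewhere.

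Genes of other retinal cells differed in level and in spread. Of the Mueller glia and astrocyte list 3 of 8 members passed the limit (background 4.81%, and 30.1% among the 1022 genes of lowest mean, to which Kcnj10 belongs). Kcnj10 was highest in S4 (215) and lowest in S6 (16.6), Cp was highest in S3 (679) and lowest in S4 (55.4), and Crym followed Fn1. Glul, which is also expressed outside glia, had a mean of 4734 and ranged 1.39-fold, and the sum of the list lay between 8385 and 9722. Gad1, a gene of inhibitory neurons, had 0 reads in S1 and between 15.8 and 103.9 in the others, and Calb2 was between 41.5 in S6 and 244 in S3. In the border macrophage list, Mrc1 was at 87.9, 54.4, 183, 100.4, 19.2 and 235 and Siglec1 at 610.2, 2447, 1481, 1418, 1961 and 2956. Of the 9 members 2 passed the limit (background 4.81%, and 30.1% among the 1022 genes of lowest mean, to which Mrc1 belongs). Lyve1 had reads in S1 alone (12.6). In the list of pigment epithelium, endothelium and pericytes, 1 of 5 members, Best1, passed (background 4.81%), from 41.5 in S6 to 197 in S1.

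The gene with the smallest spread was Lyn, a Src-family kinase of myeloid cells (chr4:3678115-3813122, plus strand), at 20406, 20294, 20392, 21054.5, 20518.5 and 20716 in S1 to S6, a 1.04-fold range with an SD of 0.020. Rhoq was next, between 2566 and 2709, followed by Casp8, an initiator of cell death, between 5038 and 5338.5. The 25 genes with the smallest SD had means between 852 and 20564 and ranged at most 1.11-fold. They included genes of protein sorting and the endoplasmic reticulum such as Erp44, Ergic1, Reep5, Rpn1 and Lman2l, genes of myeloid signalling such as Stat6 and Ceacam1, and the nuclear pore gene Nup62. Their place depended on the measure: 18 of the 25 stayed among the 25 smallest with TMM factors, and 5 with the dispersion of edgeR and 5 with the median absolute deviation.

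Housekeeping groups had median SDs near or under the 0.244 of all genes, and the median SD of the 1022 genes with the highest means was 0.162. Among 26 lysosome genes it was 0.147, and Npc2 ranged 1.12-fold. Proteasome subunits had a median SD of 0.187 over 38 genes, cytosolic ribosomal protein genes 0.199 over 74, oxidative phosphorylation subunits 0.212 over 76, glycolysis and hypoxia genes 0.239 over 19, heat shock and unfolded protein genes 0.194 over 17, and lineage transcription factors 0.194 over 15, of which Runx1 ranged 1.18-fold and Cebpb 1.89-fold. Of these, 1 of 76 oxidative phosphorylation genes, Atp5l, and 1 of 17 stress genes, Trib3, passed the 4-fold limit (background 4.81%). S3 was highest in 49 of the 76 oxidative phosphorylation genes, in 36 of the 74 ribosomal genes and in 25 of the 38 proteasome genes, against 22.3% of all genes. Of the 74 ribosomal genes 24 had r of at least 0.9 with Fn1 (background 3.86%), and this was 15 with TMM factors or without S4 and 39 without S2. Over all genes the count was 394, and it was 320 with TMM factors, 555 without S4 and 605 without S2. Ribosomal protein genes have many processed copies in the genome, so their counts are uncertain. The 8 mitochondrial genes ranged from 1.28-fold to 1.67-fold. They were highest in S5 in 5 cases and in S3 in 3 (13.8% and 22.3% of all genes).

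Common reference genes were not equal between the samples. Sdha ranged 1.14-fold (7398 to 8418), Polr2a 1.23-fold, Actb 1.32-fold and Hprt 1.52-fold. Gapdh was at 12051, 15798, 17295, 9648, 13157 and 16263 in S1 to S6, a 1.79-fold range, and had r of at least 0.9 with Fn1, as had Ppia, Ywhaz and Pgk1. Tfrc ranged 3.30-fold.

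Clustering of the 500 genes of largest SD by their correlation gave 7 clusters of at least 20 genes, which held 268 of the 500. As every gene was used to form them, they are given as a description. The first (57 of the 500 genes) held 5 of 10 MHC class II genes, among them Ciita, and 4 of 15 monocyte genes. It also held 2 of 12 dendritic cell genes, among them Cd209a, and 2 of 8 genes of the Mueller glia and astrocyte list. Its median gene lay at -1.216 in S1, -1.17 in S4 and 1.39 in S3 about its mean on the log2 scale. The second (55 genes), with Ccr7, Ccl22, Gpr141 and Klrk1, was lowest in S4, at -1.76. The third (38 genes), with Prom1 and Cdhr1, was low in S1 alone, at -2.52. The fourth (37 genes) held 13 of the 14 photoreceptor genes and was at -2.25 in S1 and -1.27 in S2, and at 1.61 in S4 and 1.65 in S6. The fifth (30 genes), with Il12rb2, was low in S3 alone (-1.74), the sixth (29 genes), with Ccr2, Spon1 and Oas2, lay at -1.60 in S1 and 1.24 in S6, and the seventh (22 genes), with Cxcl9 and Kcnj10, was low in S6 alone (-1.72). Several clusters thus rest on 1 sample.

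The 500 genes of largest SD had a median exonic length of 5070.5 bases in Gencode M21, the 500 of smallest SD 4505.5 and all members 4642. Exons shared with another gene were annotated for 28% of the variable, 37.8% of the stable and 36.9% of all genes. A promoter window was found for 75.6% of the 500 most variable genes, under 80%, so promoter letters and GC content were not compared between variable and stable genes.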

How the data were processed

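RNA-seq of sorted retinal microglia was analysed in the 6 laser samples (CNV d3), and the control samples entered only a check that size factors came from all samples. The authors made full-length cDNA by template switching and PCR, sequenced single reads of 50 cycles, mapped them with STAR 2.7.2b to GRCm38.p6 with Gencode M25, counted reads with featureCounts 1.6.4 at default parameters, which ignore strand, and divided them by size factors from DESeq2 1.22.2. The deposited signal of each sample is this normalised read count, with size factors from all 12 samples of the series. The table also holds the authors' means per group, log2 fold changes and adjusted p-values, which were not used. Sample groups came from the labels.

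All values of the 6 samples were whole multiples of the smallest value (100%, tolerance 0.001 reads), so reads were recovered by division. A step foreseen on condition of whole reads, the comparison with counting error, was therefore made on these reads. The values were analysed as log2(value + 1) in Python 3.11.15 with scipy 1.17.1. A list was described by its counts and median SD beside those of all genes, and the score of a list is its mean log2 value. Correlations used Pearson's r, Spearman's rho and two-sided exact tests over the 720 pairings of 6 samples, with Benjamini-Hochberg adjustment over 51060 relations. The genes named were the 5 markers, the 25 of largest and of smallest SD, the 6 nearest to and 3 farthest from each marker, the 6 at each end of components 1 and 2, the 3 most and 1 least variable of each list, all genes of lists of 10 or fewer, and the most variable gene in each of 10 classes of the mean. Some genes that this rule names are not reported here. Other list genes were named after their values were seen. The members and lists were chosen with earlier results of these data known.

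The alternatives were TMM factors (edgeR 4.0.16) and DESeq2 1.42.0 factors from the 6 samples, pseudocounts of 0.5 and 10, means of at least 10 and 200, thinning to 23532260 reads, other measures, calls and cuts, and leaving out each sample. Leaving out the Y chromosome and photoreceptor lists was added after seeing the data. The scripts were tested on simulated data. Gene coordinates came from Gencode M21 (10211 genes matched). Promoter windows from RefSeq, 1 per gene, matched 8327 genes. The genes Clec7a, Mx1 and Mx2 of the lists are not typed as protein-coding in the table and are no members.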

Additional observations from a re-analysis of the deposited data

Results flagged for a closer look

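By the ratio of an end sample's gap to the range of all 6 samples, 15 of 212 named genes (7.08%) and 3 of 30 list scores exceeded Dixon's 95% critical value for 6 samples. The ratio flags about 5% of groups by chance. S4 was the sample apart in 6 of these genes, and in each of the 6 it was the lowest: Ccr7 (0.820), P2ry10 (0.755), Traf1 (0.738), Klrk1 (0.734), Tnip3 (0.674) and Gpr141 (0.652). S4 had 0 reads of Ccr7, P2ry10, Tnip3 and Gpr141, 1 read of Klrk1 and 2 of Traf1. S3 was lowest in Ceacam1 (0.846), Il12rb2 (0.696) and Csf3r (0.639), S6 was lowest in Sec16b (0.644) and highest in Arhgap1 (0.630), S2 was highest in Mitf (0.724) and Cklf (0.643), S1 was lowest in Cdhr1 (0.682), and S5 was highest in Runx1 (0.714). Arhgap1, Ceacam1, Cklf and Runx1 are stable genes, whose highest and lowest samples differed by at most 1.18-fold.

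S3 had the highest score of cholesterol synthesis (0.7099) and of chemokines and cytokines (0.682), 0.50 and 0.57 above the mean of the 6 samples on the log2 scale, and the lowest score of the neutrophil list (0.639), which rests on Csf3r alone.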

How the results depend on the processing

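No paired analysis was possible because every result came from the laser samples alone, so that no numbers were shared between groups compared. Of 430 values recomputed under other settings with all 6 samples kept, 47 moved. A count was called moved when it changed by more than a factor of 1.5, or to or from 0. SDs, the share of component 1 and the SD over counting were called moved beyond their standard error from leaving out each sample. Only the r between 2 markers and the ratio of exonic lengths could be called reversed, and 0 of them were. TMM and DESeq2 factors moved the median gene by at most 0.032 on the log2 scale in any sample. The 491 genes past the 4-fold limit were 1580 with a mean of at least 10 and 91 with a mean of at least 200, and 200 at an 8-fold and 2427 at a 2-fold limit. The share of component 1 was 28.9% with a mean of at least 10. With a call of 0.95 in place of 0.9, genes of high and low r were 131 and 65 for Fn1, 134 and 58 for Cd74, 43 and 29 for Mki67, 21 and 23 for Spp1, and 9 and 16 for Apoe, and 75 genes had a rho of at least 0.9 with Apoe. Mean filters change which genes are tested, and limits which are called, by construction. Of the 25 genes of largest SD, 23 were also among the 25 of largest dispersion and 14 among those of largest median absolute deviation, and 13 remained without S1.

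Leaving out each sample gave 370 to 454 genes past the 4-fold limit, a share of component 1 of 37.9% to 43.1%, 331 to 390 genes in clusters, and an SD over counting of 4.67 to 5.02. Genes with r of at least 0.9 were then 512 to 685 for Fn1, 525 to 653 for Cd74, 161 to 442 for Mki67, 147 to 202 for Spp1 and 101 to 282 for Apoe, and with r of at most -0.9 they were 295 to 395, 203 to 338, 129 to 280, 131 to 272 and 113 to 214, since a high r is more frequent over 5 samples than over 6. The r of Fn1 and Cd74 was 0.97 to 0.99. Pairs that changed sign were Spp1 and Apoe (-0.35 to 0.62, negative without S6), Spp1 and Mki67 (-0.46 to 0.31, positive without S1, 0.24, or S6, 0.31), Fn1 and Apoe (-0.017 to 0.70, negative without S4) and Cd74 and Apoe (-0.051 to 0.76, negative without S4). The cause was not tested.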
